A study of Sus scrofa with 12 samples.

Results

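Fibroblast growth factors (FGFs) and their receptors were examined in the Semimembranosus (SM), a ham muscle, of 12 Italian Large White pigs that differed in intramuscular fat (IMF). A list of 10 genes was looked for by gene symbol, and 8 of them were counted: the ligands FGF1, FGF2, FGF6 and FGF10 and the receptors FGFR1, FGFR2, FGFR3 and FGFR4, out of 20341 genes with at least 1 count. FGF7 and FGF13 were not analysed here. All 8 genes passed the filter on low counts and were among the 14262 genes tested. The high IMF group held pigs 1 to 6 and the low IMF group pigs 7 to 12, each labelled as 3 females and 3 males (castrated, by the methods) of 150 to 160 kg live weight. The pigs of the high IMF group were 234 to 244 days old and those of the low IMF group 229 to 249 days old, and all were kept in the same environment on the same diet. They were slaughtered on several different days, which were not analysed here. No pig carried a treatment or a modified gene, so the groups stand for a natural difference in fat content within 1 breed, and each pig gave 1 library.

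FGF ligands are secreted proteins that bind a receptor tyrosine kinase together with heparan sulfate, a sugar chain of the cell surface and matrix, and the bound receptor signals mainly through the RAS and MAP kinase cascade. In muscle, FGF signals are known to keep satellite cells, the stem cells of the fibre, dividing and to delay their fusion, and FGFR1 and FGFR4 are the receptors best known from these cells. FGF6 is a ligand expressed largely in skeletal muscle, FGF2 is held in the matrix around fibres, FGF1 binds all of the FGF receptors, and FGF10 is made by mesenchymal cells and acts mostly through FGFR2. The question addressed is how FGF2, which the study had listed as differing between these pigs, sits beside the other FGF ligands and the receptors.

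Depth was 131048805 to 154840282 counts per library in the high IMF group and 133915596 to 178013997 in the low IMF group, and FGFR2, FGFR3 and FGF10 had at most 117 counts in any pig. Muscle fibre genes were abundant, as the label has it, with a summed TMM-normalized count (the count scaled to a common library size by the trimmed mean of M values) of 4768390 to 9150130 over 5 fibre markers. The Y chromosome genes EIF1AY and KDM5D, 2 of the 8 looked for, summed to at least 3734 counts in 6 pigs and to at most 6 in the others. These counts went against the labelled sex in 6 of the 12 pigs, namely pigs 3 and 5 of the high IMF group and pigs 7, 8, 9 and 10 of the low IMF group, while each group held 3 pigs with Y counts. Whether the fat labels of these pigs are affected cannot be told from the counts, and values without them are given beside the main result. The 7 adipocyte markers did not separate the groups: their summed count was 22524 to 41878 in high and 17203 to 50790 in low IMF, and by the quasi-likelihood test of edgeR 0 of the 7 reached an unadjusted p of 0.05.

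Set by level per kilobase of exon, FGFR1 came first with a mean TMM-normalized count of 850 per kb over the 12 pigs. FGF6 followed at 365 per kb, FGF1 at 216, FGF2 at 176 and FGFR4 at 143. The remaining genes lay far lower, with FGFR3 at 11.4 per kb, FGF10 at 7.93 and FGFR2 at 6.20. Only between FGFR4 and FGFR3 did the ranges of neighbours in this order stay apart over all 12 pigs. FGFR1 stood above FGF6 in 11 pigs and FGF6 above FGF1 in 11, whereas FGF1 exceeded FGF2 in 8 pigs and FGF2 exceeded FGFR4 in 7. Exon lengths were those of RefSeq and the counts were made on Ensembl models, so the order is approximate. Per kilobase of coding sequence the first place went to FGF6 with a count of 3125 per kb, ahead of FGF1 at 1982, FGFR1 at 1135, FGF2 at 982 and FGFR4 at 190. FGF10 then stood at 80.2 per coding kb, FGFR3 at 20.5 and FGFR2 at 6.64. On either length the 5 upper genes and the 3 lower genes were the same.

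**Figure D1:**
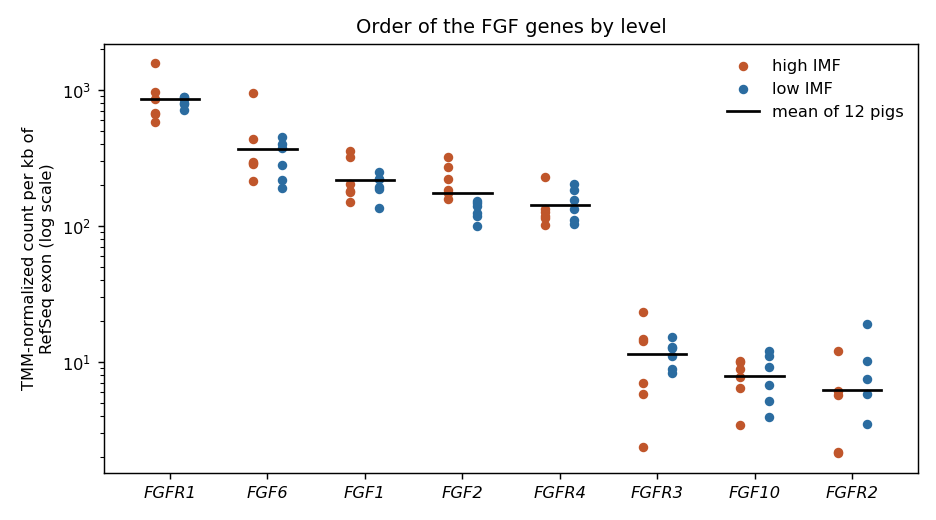
Level of each FGF gene as TMM-normalized count per kb of RefSeq exon on a log scale, 1 point per pig (high IMF and low IMF side by side, 6 pigs each), with a line at the mean of the 12 pigs; the 2 pigs with an FGFR2 count of 0 cannot be drawn on this scale. FGFR1 leads at 850 per kb, the 5 upper genes have means of 143 or more, and FGFR3, FGF10 and FGFR2 lie at 11.4 or lower.

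Among the ligands, FGF2 (ENSSSCG00000036213) lies on the minus strand of chromosome 8 of Sscrofa11.1, from 101278877 to 101344084. Its TMM-normalized counts in the high IMF pigs 1 to 6 were 1824, 1468, 1230, 1045, 1162 and 2130, with a median of 1349. In the low IMF pigs 7 to 12 the counts were 671, 1024, 784, 837, 989 and 939, with a median of 888. Every high IMF pig was above every low IMF pig, although pig 4 of the high IMF group exceeded pig 8 of the low IMF group by little. FGF2 was the single member of 8 whose groups did not overlap, against 0.659% of all genes tested in either direction and 0.4% with the high IMF group above. Of the 8 members, 0 met the study's rule for a differentially expressed gene (DEG), an adjusted p not above 0.05 and an absolute log2FC not under 0.58, in the quasi-likelihood test, where 0% of all genes did, while DESeq2's Wald test called 1 member against 0.458% of the genes it tested.

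For FGF2 the log2FC (low over high IMF) was -0.76 with a standard error of 0.18 and a 95% interval of -1.14 to -0.37, and by p it ranked 45 among the genes tested with edgeR (adjusted p of 0.280). By the Wald test of DESeq2 its adjusted p was 0.0189. The study had chosen FGF2 on these same pigs, so neither value is independent evidence of its direction. In the Wald test the call was lost on leaving out pig 6, 7, 9 or 10, with adjusted p-values of 0.0691, 0.0591, 0.0723 and 0.0523, and without pig 6 the quasi-likelihood log2FC was -0.62. Over only the 6 pigs whose Y counts match their labels, 4 of high and 2 of low IMF, the log2FC was -0.74 with a standard error of 0.29, and the adjusted p was 0.998 in the quasi-likelihood test and 0.653 in the Wald test. In bulk muscle, fewer cells of a type and less RNA per cell cannot be told apart.

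NUDT6, a gene on the opposite strand, shares 1014 exon bases with FGF2 in the RefSeq annotation. NUDT6 counts after TMM scaling averaged 157 ± 42.8 in the high and 128 ± 32.9 in the low IMF pigs (SD, n = 6 each), with a log2FC of -0.29, a standard error of 0.23 and an adjusted p of 0.686 in edgeR. The libraries kept the strand, but the strand setting of the counting is not given in the sources used here, and without strand the reads of the overlap cannot be told apart. The NUDT6 total was far under that of FGF2 in every pig, 215 at most against 671 at least for FGF2.

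FGF1 (ENSSSCG00000024954) lies on the minus strand of chromosome 2, from 144133846 to 144241345. The pigs read TMM-normalized counts of 642, 775, 758, 874, 1521 and 1370 in pigs 1 to 6 and 1073, 948, 830, 806, 957 and 580 in pigs 7 to 12. The groups overlapped widely, since the medians were 824 in high and 889 in low IMF while pigs 5 and 6 alone of the high IMF group were above all low IMF pigs. The log2FC was -0.19 with a 95% interval of -0.67 to 0.28, an interval that reaches past 0.58 on the high IMF side.

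FGF6 (ENSSSCG00000032662) lies on the plus strand of chromosome 5, from 65975807 to 65990035. As TMM-normalized counts, it read 1533, 1565, 1591, 1149, 5102 and 2328 in pigs 1 to 6 and 1161, 2127, 2420, 2013, 1509 and 1016 in pigs 7 to 12. Pig 5 held the highest value by far, and the medians of 1578 in high and 1761 in low IMF ran opposite to the means of 2211 ± 1467 and 1708 ± 565 (SD, n = 6 each). The log2FC was -0.37 with a 95% interval of -1.11 to 0.37, and without pig 5 it turned to 0.06.

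FGF10 (ENSSSCG00000016878), on the minus strand of chromosome 16 from 28695465 to 28779953, was the member ligand with the fewest counts. Its TMM-normalized counts were 57.7, 50.0, 65.4, 41.5, 22.1 and 64.6 in pigs 1 to 6 and 43.7, 59.2, 70.8, 33.5, 25.6 and 78.1 in pigs 7 to 12. Both groups covered nearly the same range. The log2FC was 0.05 with a 95% interval of -0.70 to 0.79, and its sign was not stable across settings.

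Of the receptors, FGFR1 (ENSSSCG00000015815) lies on the plus strand of chromosome 15, from 48053895 to 48106634. Counted after TMM normalization, it stood at 3183, 2788, 1904, 2213, 2169 and 5111 in pigs 1 to 6 and 2591, 2811, 2887, 2328, 2611 and 2880 in pigs 7 to 12. The low IMF pigs were alike, with a coefficient of variation of 8.10%, whereas the high IMF pigs spread at 40.8% and pigs 3, 4 and 5 lay under every low IMF pig. The log2FC was -0.11 with a 95% interval of -0.55 to 0.33, which does not reach 0.58 in size on either side, and without pig 6 it was 0.13.

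FGFR4 (ENSSSCG00000014047) lies on the minus strand of chromosome 2, from 80841536 to 80853791. TMM-normalized counts of FGFR4 were 406, 727, 427, 325, 366 and 378 in pigs 1 to 6 and 429, 353, 593, 499, 652 and 331 in pigs 7 to 12. Pig 2 was the highest of all, and 4 of the low IMF pigs were above the high IMF median of 392. The log2FC was 0.12 with a 95% interval of -0.36 to 0.60.

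FGFR3 (ENSSSCG00000030827), on the plus strand of chromosome 8 from 879151 to 894968, was sparse. Its TMM-normalized counts were 67.2, 110, 27.6, 11.1, 69.9 and 32.9 in pigs 1 to 6 and 51.9, 60.2, 59.2, 39.0, 41.8 and 72.0 in pigs 7 to 12. The low IMF pigs lay inside the range of the high IMF pigs, and the log2FC was 0.02 with a 95% interval of -0.93 to 0.97.

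FGFR2 (ENSSSCG00000010698), on the minus strand of chromosome 14 from 131183095 to 131285001, was the least abundant, with 204 counts over all pigs. Its TMM-normalized counts were 15.1, 5.7, 16.3, 0, 5.8 and 31.7 in pigs 1 to 6 and 0, 19.7, 27.2, 15.4, 9.4 and 50.3 in pigs 7 to 12. In pigs 4 and 7 no read was counted, which allows up to 3 counts of 142597492 and of 133915596. These limits cover counting error only and take each count as independent. The log2FC of 0.72 had a 95% interval of -1.08 to 2.53, so a difference of the size seen for FGF2 was not detectable at this depth and spread.

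Apart from FGF2, the quasi-likelihood adjusted p of the members lay between 0.734 for FGF6 and 0.993 for FGFR3. An unadjusted p at or under 0.05 was reached by 1 of the 8, FGF2, while 10.4% of all genes tested reached it. The log2FC was under 0 in 4 members, FGF1, FGF2, FGF6 and FGFR1, and above 0 in the other 4, against 51.6% of all genes under 0. The members' median log2FC was -0.04 and that of all genes -0.01.

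**Figure D2:**
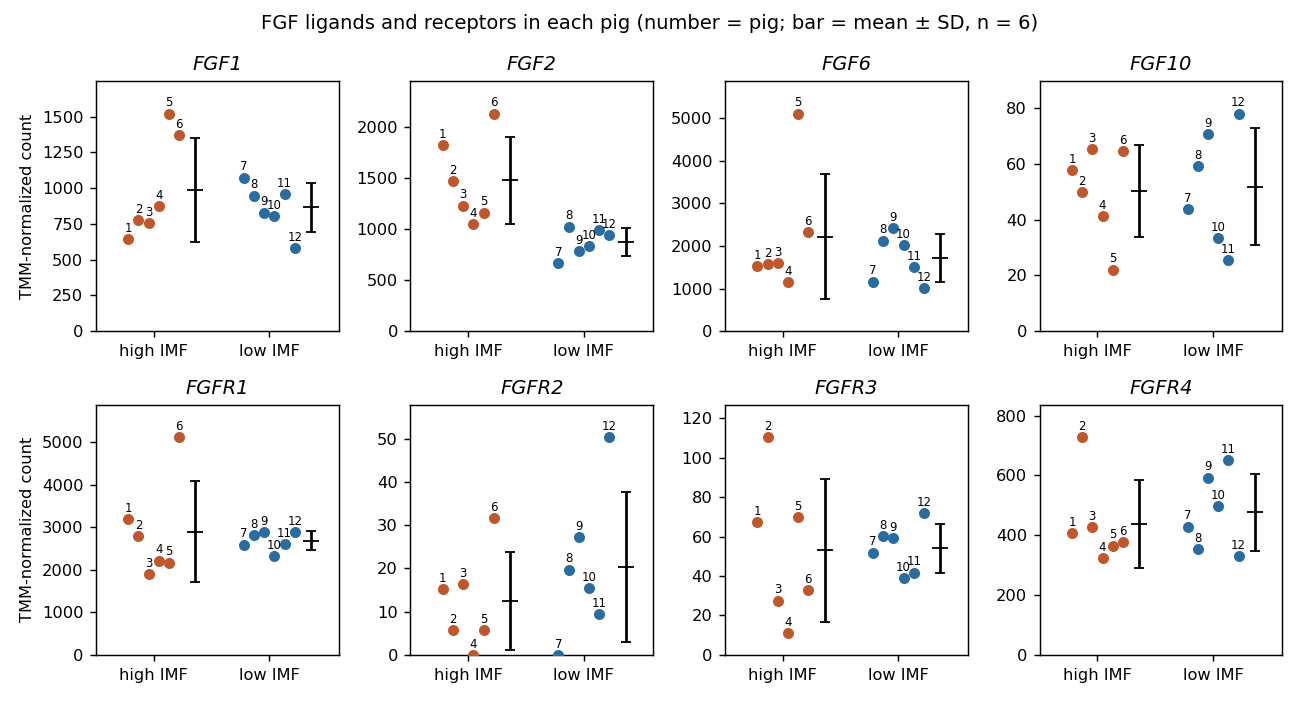
TMM-normalized count of each member in each pig on a linear axis from 0, with the pig's number above its point and the mean ± SD of the 6 pigs of each group in black. FGF2 alone shows groups that do not overlap, and pig 5 stands out in FGF6 at 5102, pig 6 in FGFR1 at 5111 and pig 2 in FGFR4 at 727.

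**Figure D3:**
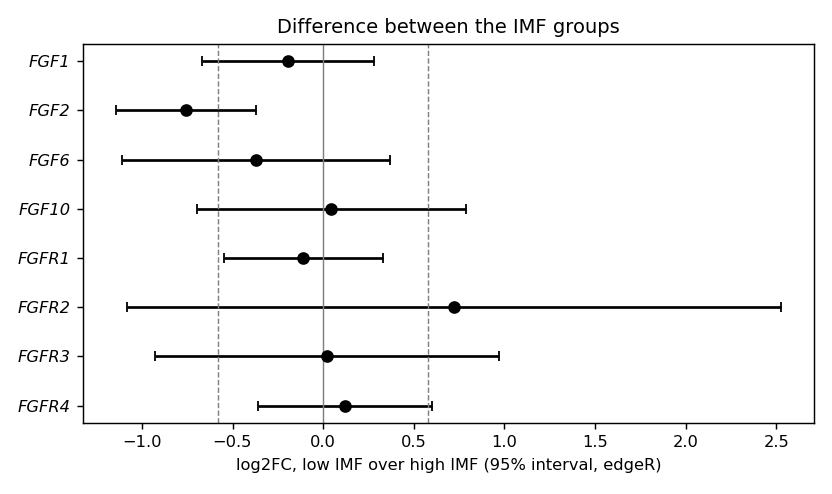
log2FC of low over high IMF for each member from edgeR, with 95% intervals, a grey line at 0 and dashed lines at 0.58 in either direction, the study's threshold of size. The interval of FGF2, -1.14 to -0.37, lies on the high IMF side, and those of the other 7 members include 0.

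The make-up of the receptor pool was close in both groups. Taking the summed count per kb of exon of the 4 receptors, FGFR1 made up 84.3% ± 5.32 (SD, n = 6) in high and 83.0% ± 3.37 (SD, n = 6) in low IMF. FGFR4 made up 14.1% ± 4.90 and 15.1% ± 3.89, and FGFR3 and FGFR2 held 1.16% or less of the pool in either group. The FGFR4 to FGFR1 ratio per kb of exon was 0.171 on average in high and 0.184 in low IMF, and on the log2 scale the low IMF mean exceeded the high IMF mean by 0.16. An exact two-sided permutation test over all arrangements of the pigs gave p = 0.647 for this difference, 1 ratio having been tested, and without pig 6 the difference turned to -0.05.

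Among the 4 member ligands counted, the summed count per kb of exon was 871 ± 346 (SD, n = 6) in high and 659 ± 118 (SD, n = 6) in low IMF. This pool leaves out FGF7 and the ligands outside the members, of which FGF9 at 69.5 and FGF21 at 61.8 per kb stood above FGF10 at 7.93. FGF6 made up 44.5% ± 9.93 of it in high and 47.3% ± 8.38 in low IMF, FGF1 26.9% ± 4.91 and 31.0% ± 6.83, and FGF10 about 1.03% and 1.28%. FGF2 made up 27.5% ± 8.71 in high and 20.4% ± 5.07 in low IMF, with overlapping ranges of 11.7% to 38.1% and 15.2% to 29.4%. The lowest share of the high IMF group was that of pig 5, the pig with the highest FGF6.

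Set against FGFR1 within each pig, FGF2 kept its separation. The log2 ratio of FGF2 to FGFR1 per kb of exon ran from -2.29 to -1.66 in the high IMF pigs and from -2.98 to -2.43 in the low IMF pigs, with means of -1.96 ± 0.219 and -2.66 ± 0.233 (SD, n = 6 each). These ranges did not overlap, and the mean difference of -0.70 is close in size to the log2FC of FGF2 itself. No test was run, because FGF2 had been picked for its difference. Ratios of FGF2 to FGF1, FGF6 and FGFR4 overlapped between groups, with log2 means of -0.03 against -0.61, of -0.75 against -1.23 and of 0.70 against -0.15 in high and low IMF.

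Within groups, FGF2 and FGFR1 varied together more closely than any other pair of the 8 members. The Pearson correlation of their deviations from the group means on the log2 counts-per-million scale was 0.802 over the 12 pigs, with a Spearman rho of 0.769, the highest r of 28 pairs. The points share libraries and scaling, and no p is given. Leaving out pig 6 lowered r to 0.686, and leaving out pigs 1 and 6, the farthest from the middle in FGF2, lowered it to 0.598 over 10 pigs. The relation came mostly from the high IMF group, with r = 0.918 over its 6 pigs and 0.246 over the 6 low IMF pigs, among which FGFR1 hardly varied. FGF2 and FGFR2 followed at 0.688, resting on few FGFR2 counts. FGF1 and FGF6 came next at 0.654, an r that was 0.446 without pig 5, and the lowest value was -0.523 for FGF1 and FGF10.

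**Figure D4:**
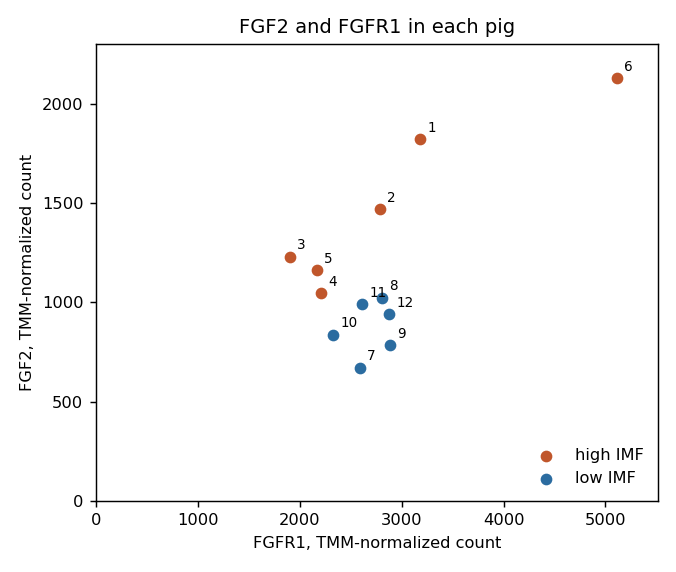
FGF2 against FGFR1 in each pig, both as TMM-normalized counts on linear axes from 0, numbered by pig and coloured by IMF group. The high IMF pigs spread along a slope up to pig 6 at 5111 and 2130, while the low IMF pigs form a cluster under them with FGFR1 between 2328 and 2887.

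The genes whose within-group deviations were most like those of FGF2 over the 12 pigs, among 11836 named genes, were SLC25A22, a mitochondrial glutamate carrier, at r = 0.927, CD80, an immune co-stimulator, at 0.903, and SRGAP1 at 0.889. CHIC2 at 0.872 and NFKBIZ, a nuclear regulator of NF-kappa-B, at 0.859 completed the first 5. FGF1 was most like ARID5B at 0.916, CCDC171 at 0.895 and GATM, an enzyme of creatine synthesis, at 0.889. FGFR1 was most like RNF180 at 0.972, CD44, the hyaluronan receptor, at 0.954, and DSE, an enzyme of dermatan sulfate synthesis, at 0.951. FGFR4 was most like SLC16A14 at 0.874, BCO2, a carotenoid-cleaving enzyme, at 0.862 and DUSP29, a muscle phosphatase, at 0.839. Such maxima are picked from many genes over few pigs and describe these libraries.

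Presence of Y counts, balanced over the groups, was set against the members after the Y counts had been seen. FGFR3 averaged 35.3 ± 16.0 in pigs with Y counts and 71.9 ± 20.2 in those without, as TMM-normalized counts (SD, n = 6 each). Its log2FC with over without Y counts was -1.08 with a standard error of 0.36, and its edgeR adjusted p of 0.410 did not pass, in a comparison where 0.133% of genes passed and 10.4% had an unadjusted p at or under 0.05. The other 7 members had unadjusted p-values of 0.614 or more in edgeR. A difference of the IMF contrast between pigs with and without Y counts had an edgeR adjusted p of 0.999 in all 8 members, with 0% of genes passing. At an unadjusted p of 0.05, which 3.41% of genes reached, FGFR4 stood at 0.0134 and FGFR3 at 0.0441. For FGFR4, the pigs with Y counts read 427, 325 and 378 in high and 593, 499 and 652 in low IMF, whereas those without read 406, 727 and 366 in high and 429, 353 and 331 in low IMF.

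Other FGF ligands had few counts in this muscle, although per kb of exon FGF9, FGF21, FGF18, FGF12 and FGF22 stood above the member FGF10. Of 16 looked for, 12 were listed, and FGF4, FGF8, FGF17 and FGF20 had a count of 0 in all pigs. Whether such a 0 is absence or comes from the gene models counted was not tested. FGF16, FGF19 and FGF14 had 126, 12 and 45 counts over all pigs and were not tested. Of the 5 tested, 0 reached an unadjusted p of 0.05. FGF21, a hormone-like FGF of energy metabolism, averaged 57.5 ± 22.5 in high and 39.7 ± 14.3 in low IMF as a TMM-normalized count (SD, n = 6 each), with a log2FC of -0.53 and an edgeR adjusted p of 0.620. FGF9, the highest per kb of these, had a log2FC of -0.47, and FGF12, an intracellular FGF-like protein, one of 0.20.

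Of 8 co-receptors and FGF-binding proteins tested, 0 were called, and 1 in each direction had an unadjusted p at or under 0.05, where 5.04% of all genes were higher in high and 5.38% higher in low IMF by that rule. FLRT2, a membrane protein of the FLRT family that binds FGF receptors, had a count of 1024 ± 200 (SD, n = 6) in high and 768 ± 169 (SD, n = 6) in low IMF, with a log2FC of -0.41. NCAM1, a cell adhesion molecule that can bind FGFR1, had 2170 ± 666 and 3100 ± 882, with a log2FC of 0.51. Both had an edgeR adjusted p of 0.441 and overlapping groups. Without pig 6, 0 of the 8 genes had an unadjusted p at or under 0.05 in either direction. Of all genes, 3.35% then did so on the high and 3.91% on the low IMF side. Over the 6 pigs whose Y counts match their labels, the log2FC was -0.26 for FLRT2 and 0.27 for NCAM1. Both then had an unadjusted edgeR p above 0.05. FGFRL1, a receptor without a kinase domain, had a log2FC of 0.33, and FIBP, an intracellular FGF1-binding protein and the highest per kb of the list, one of 0.03.

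Heparan sulfate carriers and enzymes gave 0 calls in 21 genes tested, with 3 at an unadjusted p at or under 0.05, all with more counts in low IMF, where 5.38% of all genes stood on that side, and a median log2FC of 0.19 over the list. Over the 6 pigs with matching labels, an alternative chosen after seeing the data, 1 gene in each direction reached that p, EXTL3 in low IMF and HPSE, heparanase, in high IMF. Of all genes, 1.86% did so on the low and 2.19% on the high IMF side. EXTL3, which starts the heparan sulfate chain, had a log2FC of 0.42 and an edgeR adjusted p of 0.419. HS6ST1, a sulfotransferase that adds 6-O-sulfate, had one of 0.33, and NDST1, which adds N-sulfate, one of 0.42. Over the pigs with matching labels the log2FC was 0.36 for EXTL3, 0.085 for HS6ST1 and -0.0043 for NDST1. GPC1, a glypican and the highest per kb of these genes, had a count of 7745 ± 2165 (SD, n = 6) in high and 9342 ± 1618 (SD, n = 6) in low IMF.

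Intracellular signalling genes gave 0 calls in 24 tested and 4 at an unadjusted p at or under 0.05, again all with more counts in low IMF, against 5.38% of all genes, with a median log2FC of 0.10. In the pigs with matching labels 0 of the 24 reached that p, where 1.86% of all genes did so on the low and 2.19% on the high IMF side. CRKL, an adaptor that couples receptors to RAS-family signalling, read 17475 to 19712 in high and 20578 to 24497 in low IMF. Its groups did not overlap, which held for 1 of the 24 genes and for 0.659% of all genes tested in either direction. The CRKL log2FC was 0.30 with a standard error of 0.08, and 0.17 over the pigs with matching labels. Over all pigs the edgeR adjusted p was 0.342 and the Wald adjusted p 0.00619. The size was under 0.58, so CRKL was not a DEG by either test. MAPK3, the ERK1 kinase, had a log2FC of 0.36 and ARAF, a kinase of the MAP kinase cascade, one of 0.44, with edgeR adjusted p-values of 0.367 and 0.427. The fourth gene was GRB2, an adaptor, at 0.21.

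Feedback inhibitors of the FGF and MAP kinase pathway gave 0 calls in 11 tested and 4 at an unadjusted p at or under 0.05, all with more counts in high IMF, against 5.04% of all genes, with a median log2FC of -0.24. Without pig 6 the 4 became 2, DUSP6 and SPRY4, against 3.35% of all genes, with a median of -0.09. The pigs with matching labels gave the same pair, against 2.19% of all genes. DUSP6, a phosphatase that inactivates ERK and the highest per kb of these, read 1636, 1503, 1226, 1626, 1521 and 2914 in pigs 1 to 6 and 948, 905, 1277, 1188, 1264 and 777 in pigs 7 to 12. Pig 3 alone of the high IMF group lay within the low IMF range. The DUSP6 log2FC was -0.71 with a standard error of 0.20, an edgeR adjusted p of 0.367 and a Wald adjusted p of 0.0785. SPRY4, a Sprouty inhibitor, had a log2FC of -0.46 and SPRED1, a Sprouty-related inhibitor, one of -0.74, which was -0.29 without pig 6, whose count of 6797 stood far above the next at 2658. DUSP5, a nuclear ERK phosphatase, had a log2FC of -2.53, where pig 6 read 6858 and the next pig of either group 685, and without pig 6 it was -0.65.

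Transcription factors and early genes that FGF induces gave 0 calls in 9 tested and 3 at an unadjusted p at or under 0.05, all with more counts in high IMF, against 5.04% of all genes, with a median log2FC of -0.25. Without pig 6, IER2 was the 1 left of these, against 3.35% of all genes higher in high IMF. On the low IMF side 1 gene, the ETS factor ETV4, then reached that p, against 3.91%. FOS kept a log2FC of -1.065 without pig 6, but its unadjusted edgeR p was then above 0.05. That p was also above 0.05 without pig 1, 3, 7, 9, 11 or 12. Over the pigs with matching labels, of which 2 are of low IMF, EGR1, FOS and IER2 reached that p, again with more counts in high IMF. These were 3 of 9 genes, against 2.19% of all genes. Over all pigs, EGR1 had a log2FC of -1.57, FOS of -1.19 and IER2 of -0.92, with edgeR adjusted p-values of 0.441, 0.452 and 0.422. EGR1 ranged from 1661 to 34697 in high and from 1381 to 7773 in low IMF, with the highest value again in pig 6, without which its log2FC was -0.69. These genes answer many stimuli besides FGF, and their share of the difference in FGF2 was not tested. Over a list of immediate early genes, 4 of 9 tested had an unadjusted p at or under 0.05, all with more counts in high IMF, against 5.04% of all genes. JUNB was at 0 in all pigs. Of the 4, 3 were the genes just named, EGR1, FOS and IER2, and EGR2 was the fourth, so both lists count the same observation. Without pig 6 the 4 became 2, against 3.35% of all genes. Over the pigs with matching labels 5 of the 9 reached that p with more counts in high IMF, against 2.19%. The summed count of that list was 132475 to 287328 in high and 96447 to 200630 in low IMF, so the groups overlapped. Among 5 heat shock genes tested, DNAJB1 alone reached that p, with a log2FC of -1.60, where 5.04% of all genes were higher in high IMF by that rule. DNAJB1 was a DEG in the Wald test, while HSP90AA1 was at 0 in all pigs. Whether the 0 of JUNB and of HSP90AA1 is absence or comes from the gene models counted was not tested.

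**Figure D5:**
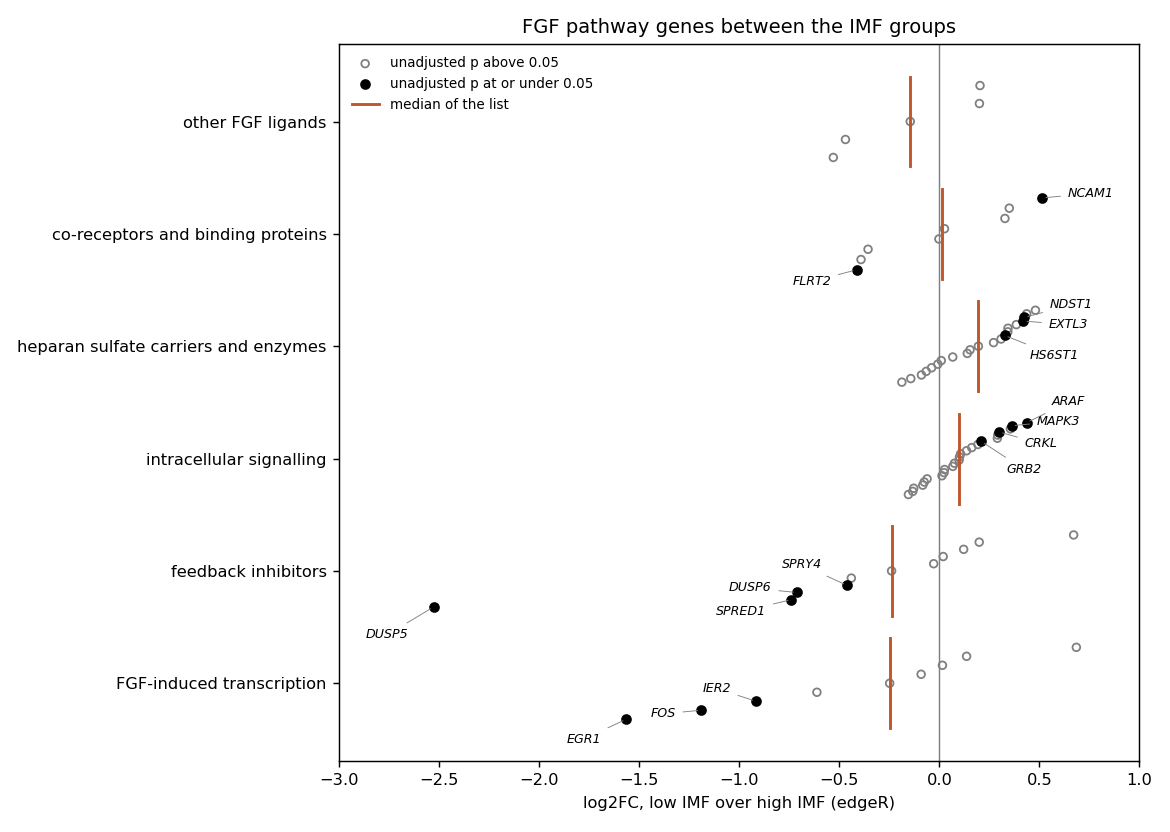
log2FC of low over high IMF from edgeR for each tested gene of 6 lists of the FGF pathway, 1 point per gene placed by size within its list, filled and named where the unadjusted p was at or under 0.05, with an orange line at each list's median. The named genes lie on the low IMF side in the heparan sulfate and signalling lists and on the high IMF side among feedback inhibitors and induced genes, and 0 genes were called.

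Markers of the cells that make or receive FGFs overlapped between groups in every list when summed. Satellite cell markers, with 5 tested and 0 at an unadjusted p of 0.05, summed to 2397 to 4859 in high and 2673 to 4612 in low IMF. Of 6 fibro-adipogenic and fibroblast markers, 3 had a log2FC under 0 and 3 above, with a median of 0.12. PDGFRA alone reached that p, with a count of 3049 to 6205 in high and 2368 to 3135 in low IMF. Its log2FC was -0.42, with its highest value in pig 6, and -0.22 without that pig. The unadjusted edgeR p of PDGFRA was above 0.05 without pig 8 or 11 and over the pigs with matching labels. The summed count of the 6 markers was 157337 to 321299 in high and 243384 to 388714 in low IMF. Of 4 endothelial markers, CDH5 had a log2FC of 0.55 and an edgeR adjusted p of 0.383, while 1 marker was under 0 and the median was 0.13. Their summed count was 13622 to 18255 in high and 14117 to 23546 in low IMF. Of 5 macrophage markers, AIF1 had a log2FC of -0.46, while 2 markers were above 0 and the median was -0.05. Their summed count was 4843 to 8934 in high and 5789 to 10787 in low IMF. Of all genes tested, 10.4% had an unadjusted p at or under 0.05. Smooth muscle markers (5 tested) and Schwann cell markers (3 tested) gave 0 genes at that p. Pig 6 thus held the highest count of FGF2, FGFR1, DUSP5, DUSP6, EGR1 and PDGFRA, and the part of cell make-up in the FGF2 difference was not tested.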

How the data were processed

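Semimembranosus muscle of 12 pigs was taken at slaughter and frozen. Per the labels and methods, the authors made stranded mRNA libraries, ran pairs of libraries per lane on an Illumina HiSeq2500 as paired reads, trimmed with Trimmomatic, aligned to Sscrofa11.1 with HISAT2 and deposited raw HTSeq counts per Ensembl gene, whose strand setting and Ensembl release are not given in the sources used here. Lane pairs and slaughter days were not analysed here. Of 25880 genes listed, 14857 carried a symbol in a pig Ensembl name table, and positions and lengths came from RefSeq for Sscrofa11.1.

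The 6 high and 6 low IMF pigs were compared by edgeR 4.0.16 (R 4.3.3) with filterByExpr, TMM factors, the quasi-likelihood test, the group as the only term and Benjamini-Hochberg adjustment over all genes tested. A gene was called where its adjusted p did not exceed 0.05 and its absolute log2FC reached 0.58. DESeq2 1.42.0, limma 3.58.1, other scalings, filters and covariates, and each pig left out were alternatives. Library totals ranged from 131048805 to 178013997 counts. These totals are above the input reads that the study gives for every library, and the reason was not tested. The p-values judge a difference between the groups against the spread between these pigs. The fit was tested on simulated data. Named genes were all members counted, and from each pathway list the 3 with the smallest p and the 1 with the highest count per kb, then the 5 genes most like FGF2 and the 3 most like FGF1, FGFR1 and FGFR4. One gene that this rule names is not reported here. GRB2, SPRED1, DNAJB1, PDGFRA, CDH5, AIF1, EGR2, ETV4 and HPSE were named after their values were seen. The members, lists and tests were chosen with earlier results of these data known.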

Additional observations from a re-analysis of the deposited data

Results flagged for a closer look

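Dixon's test was applied to 18 groups of 6 pigs, and 2 groups held a sample farther from its neighbours than the critical value for 6 samples allows, where chance flags about 1 in 20 groups. In FGF6, pig 5 of the high IMF group read a TMM-normalized count of 5102 and the next pig 2328, a gap of 0.702 of the group's range. In FGFR4, pig 2 of the high IMF group read 727 and the next pig 427, a gap of 0.746 of the range.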

How the results depend on the processing

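The quasi-likelihood test called 0 genes under every scaling, filter and covariate tried and 0 to 1 with a pig left out, the 1 arising without pig 5 or pig 10, while limma-voom called 0. DESeq2's Wald test called 57 on the same genes, 64 on all genes with at least 1 count, 38 on the pigs whose Y counts match their labels (an alternative chosen after seeing the data) and 42 to 187 with a pig left out, lowest without pig 6 and highest without pig 2. Among the members it called 1, FGF2, in both full fits, 0 in the matching pigs and 0 to 1 with a pig left out. FGF2 was below 0 in every setting, with log2FC values of -0.76 to -0.71, and of -0.84 to -0.62 with a pig left out.

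The sign of FGF10 turned with limma-voom (-0.00093), labelled age as a covariate (-0.067), the matching pigs (-0.034) and the Wald test on them (-0.032), and with age those of FGFR2 (-0.16) and FGFR3 (-0.0050) turned too. With a pig left out, log2FC ran from -0.51 to 0.065 for FGF6 (-0.50 to 0.070 in the Wald test), -0.11 to 0.18 for FGF10 (-0.11 to 0.19), -0.20 to 0.13 for FGFR1 (-0.19 to 0.14) and -0.19 to 0.37 for FGFR3 (-0.19 to 0.38), and the log2 difference in the FGFR4 to FGFR1 ratio from -0.055 to 0.31. The signs of FGF6, FGFR1 and the ratio turned without pig 5, pig 6 and pig 6. FGF1, FGFR2 and FGFR4 kept their sign with each pig left out, but over wide ranges in edgeR, from -0.30 to -0.03 (without pig 5) for FGF1, 0.24 (without pig 12) to 1.24 (without pig 6) for FGFR2 and 0.0065 (without pig 11) to 0.32 (without pig 2) for FGFR4. The cause was not tested. No paired analysis was possible because the pigs are numbered 1 to 12 and share no number between groups. FGFR2, FGFR3 and FGF10 had at most 117 counts in any pig, so their values have the least depth.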
